A study of Mus musculus with 60 samples.

Results

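A set of 8 genes for enzymes that act on methylglyoxal was followed across the brain of mice with and without Glo1: Glo1, Hagh, Glod4, Park7, Akr1a1, Akr1b3, Akr7a5 and Aldh2. They were chosen by symbol, and all 8 were rows of the count and expression tables, which held 21999 genes. The study sequenced poly(A) RNA from prefrontal cortex, striatum and hippocampus of 20 mice, with 1 library per mouse and region and 60 libraries in all. Mice were wild type (WT) or Glo1 knockout (KO). Their food from week 8 to week 12 of age differed in vitamin B6 (VB6): the normal diet held 1.4 mg in 100 g, and the diet called lacking held 5 µg in the same amount. Each of the 4 combinations held 5 mice. How the knockout was made and on which strain is not given in the sources used here. All KO libraries belonged to batch 1 and all WT libraries to batch 2, so genotype and batch cannot be told apart in any KO against WT difference, whereas diets and regions were compared within a batch. The question for these genes was how much RNA of each was present in each region, and whether the RNA of any other enzyme changed where Glo1 was lost.

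Methylglyoxal is a reactive dicarbonyl that forms mainly from the triose phosphates of glycolysis and modifies proteins, lipids and DNA. The glyoxalase route clears it with glutathione: Glo1 (glyoxalase I) turns the hemithioacetal of methylglyoxal and glutathione into S-lactoylglutathione, and Hagh (glyoxalase II) hydrolyses that product to D-lactate and frees the glutathione. Park7 encodes DJ-1, a redox-sensitive protein with a reported glutathione-independent glyoxalase activity, and Glod4 encodes a protein with a glyoxalase domain. Akr1a1 (aldehyde reductase), Akr1b3 (aldose reductase) and Akr7a5 (an aldo-keto reductase first known for its work on aflatoxin aldehyde) reduce methylglyoxal with NADPH, and Aldh2 (mitochondrial aldehyde dehydrogenase) oxidises reactive aldehydes. Vitamin B6 enters this picture because pyridoxamine, a form of it, traps dicarbonyls.

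In the GENCODE annotation of GRCm38, the assembly that mm10 names, all 8 are protein-coding genes. Glo1 lies on chromosome 17 from 30584936 to 30626871 on the minus strand, and Hagh lies on the same chromosome from 24840143 to 24864450 on the plus strand, 5.74 Mb away. Akr1a1 (116636510 to 116651680), Akr7a5 (139310744 to 139318426) and Park7 (150897133 to 150914437) are on chromosome 4. Glod4 is on chromosome 11 (76120987 to 76243725), Akr1b3 on chromosome 6 (34302434 to 34317478) and Aldh2 on chromosome 5 (121566027 to 121593824). For 4 members, Glod4, Akr1b3, Glo1 and Aldh2, the counts can hold reads of other genes. They can also lack reads of the member itself, depending on how shared reads were assigned. For Glod4, 58.5% of exon bases overlap exons of Vps53, Gemin4, Fam57a or Mrm3, although none of the 75-base stretches of its principal transcript recur in another gene. For Akr1b3, 80.2% of the 75-base stretches of its principal transcript also occur in the genes Gm12138, Gm38056, Gm6644 and Gm6736, so its counts depend on how such reads were assigned, which is not given in the sources used here, and its values are uncertain for that reason. The share for Aldh2 was 1.48%, for the long annotated Glo1 forms 7.22%, and for Hagh, Park7, Akr1a1 and Akr7a5 it was 0%. Exons of 1700097N02Rik, AC165962.3 and AC165962.4, genes not analysed here, cover 5.97% of the exon bases of Glo1, and those of Gm42879 cover 2.54% of Aldh2.

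Promoter windows of 250 bases before the annotated start came from RefSeq (GRCm38.p6), where 6 of the 8 members were found and Hagh had 2 starts. Shown here are the windows of Park7 (minus strand), Akr1a1 (minus strand) and Hagh (first start, plus strand), 3 genes whose levels moved together between libraries of a group as described further on. Capitals mark every CCAAT box (CCAAT) and GC box (GGGCGG) on either strand, which read ATTGG and CCGCCC where they lie on the opposite strand; no pair of these matches overlapped.
Park7 (chr4:150909922-150910171): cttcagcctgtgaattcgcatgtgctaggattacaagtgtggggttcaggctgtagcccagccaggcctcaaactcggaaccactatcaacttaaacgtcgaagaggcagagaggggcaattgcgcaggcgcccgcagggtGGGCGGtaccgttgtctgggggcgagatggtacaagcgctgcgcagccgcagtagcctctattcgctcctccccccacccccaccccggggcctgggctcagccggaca
Akr1a1 (chr4:116651675-116651924): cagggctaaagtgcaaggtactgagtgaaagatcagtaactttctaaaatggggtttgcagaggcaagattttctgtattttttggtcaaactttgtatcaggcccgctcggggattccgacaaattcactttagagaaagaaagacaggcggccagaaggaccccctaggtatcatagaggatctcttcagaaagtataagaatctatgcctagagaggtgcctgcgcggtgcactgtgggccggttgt
Hagh (chr17:24850240-24850489): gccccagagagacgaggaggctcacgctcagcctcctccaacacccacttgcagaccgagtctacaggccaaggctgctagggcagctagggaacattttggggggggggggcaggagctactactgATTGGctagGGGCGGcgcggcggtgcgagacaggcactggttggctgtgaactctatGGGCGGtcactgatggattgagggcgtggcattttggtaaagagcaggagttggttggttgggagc
The Park7 window held 1 GC box, the Hagh window held 1 CCAAT box and 2 GC boxes, and the Akr1a1 window held neither, with a GC content for Akr1a1 of 46.8% against 62.4% for Park7 and 61.2% for Hagh. A GC box occurred in 32.7% and a CCAAT box in 33.8% of all 32851 RefSeq windows of the same length. The core of the antioxidant response element (TGACNNNGC), the site bound by NRF2, was found in 10.2% of all windows and in none of the windows of the 6 members, and a TATA box (TATAAA) in 12.4% and in none.

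Total counts per library ran from 7640047 to 13928265, and the RNA integrity number (RIN) from 7.6 to 9.3. Summed markers matched the labelled regions: the 7 striatal markers summed to between 6189 and 7934 CPM (the count as a share of the library total, on the usual CPM scale) in striatum and to at most 177 CPM in the other regions. The 5 prefrontal markers summed to at least 1094 CPM in prefrontal cortex and at most 811 CPM elsewhere, with 4 called lower in WT hippocampus. The 6 hippocampal markers summed to at least 2080 CPM in hippocampus and at most 880 CPM elsewhere. Of these, Wfs1 was lowest in hippocampus (median 44.2 CPM, against 50.6 in prefrontal cortex and 69.1 in striatum). The 5 choroid plexus markers, led by Ttr, summed to 30.04 to 1639 CPM in hippocampus and to at most 10.8 CPM elsewhere. Of the hippocampal libraries, 7 (4 WT, 3 KO) exceeded 200 CPM, the next highest being at 153 CPM, and the comparisons of genotype, diet and their interaction in hippocampus and the regional comparisons in WT were repeated without them. All 5 microglia markers were detected in every group, and their summed level in prefrontal cortex was 194 to 242 CPM in KO and 229 to 274 CPM in WT. In striatum it was 228 to 266 CPM in KO and 250 to 308 CPM in WT, with none called. The 6 astrocyte markers summed to 9211 to 11407 CPM in KO and 10010 to 12514 CPM in WT prefrontal cortex. There 1 astrocyte, 1 microglia and 1 striatal marker were called lower in KO, where 0.673% of all genes were called in either direction. In hippocampus the 6 oligodendrocyte markers had a median summed level of 4016 CPM in KO (3724 to 6351) and 5354 CPM in WT (4566 to 6232), with a median log2 fold change of -0.29 and none called. The part of these markers in the KO against WT values below was not tested. In tissue RNA, fewer cells of a type and less RNA per cell cannot be told apart.

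Glo1 was nearly absent from KO libraries in all 3 regions. In prefrontal cortex, the normally fed KO mice had 5, 0, 7, 5 and 4 counts and those on the lacking diet had 1, 7, 5, 2 and 9, whereas the 10 WT libraries had 342 to 493. Striatal KO libraries held 2 to 10 counts against 299 to 607 in WT, and hippocampal KO libraries held 0 to 9 against 534 to 734. No KO library came near a WT library. Pooled over mice and scaled to total counts, Glo1 in KO was 0.951% of the WT level in prefrontal cortex (95% exact Poisson interval 0.693 to 1.28), 1.13% in striatum (0.827 to 1.501) and 0.640% in hippocampus (0.454 to 0.876), intervals that cover counting error only. The 2 KO libraries with 0 counts allow, at 3 counts, up to 0.543% of the WT mean in prefrontal cortex and 0.499% in hippocampus.

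With edgeR's quasi-likelihood test and Benjamini-Hochberg adjustment over all genes, the log2 fold change of Glo1 over both diets was -6.69 in prefrontal cortex (SE 0.169, adjusted p = 4.07e-22), -6.39 in striatum (SE 0.159, adjusted p = 3.04e-19) and -7.26 in hippocampus (SE 0.183, adjusted p = 1.51e-19). On the normal diet alone these values were -6.79, -6.43 and -7.02, and on the lacking diet -6.59, -6.35 and -7.50. The hippocampal loss minus the striatal loss was -0.88 on the log2 scale (SE 0.394, unadjusted p = 0.0298, adjusted p = 0.735), a difference that did not pass in edgeR. It passed with limma on log2(RPKM + 1), where the difference was -0.57 (adjusted p = 0.00567); on that scale KO libraries all lie near 0 and the WT level of hippocampus is the highest.

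**Figure D1:**
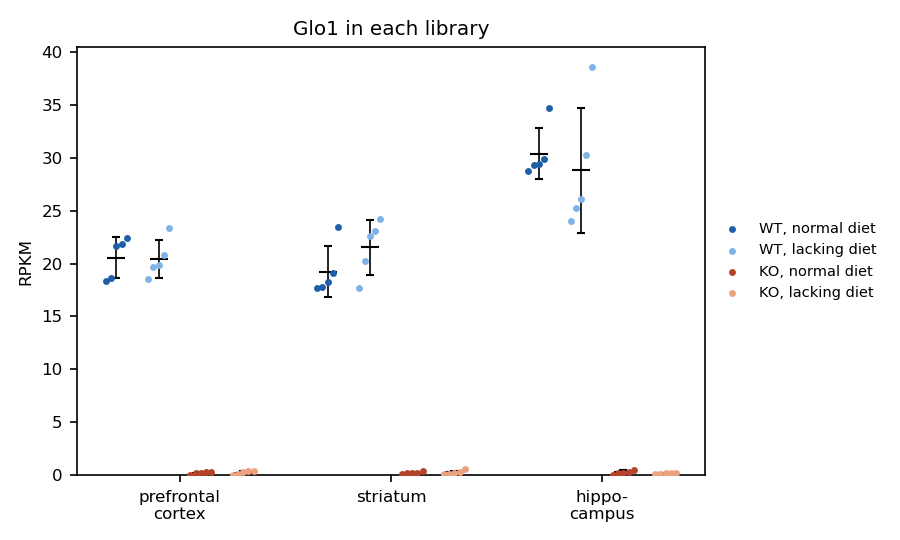
Glo1 expression in each of the 60 libraries, in RPKM (linear axis), by region, genotype and diet; points are libraries, bars the mean ± SD of 5 mice. KO libraries lie between 0 and 0.524 RPKM, and WT libraries between 17.7 and 38.6 RPKM, highest in hippocampus.

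For the surroundings of Glo1 on chromosome 17, only 3 protein-coding neighbours were examined, of which only Btbd9 could be tested in all 3 regions. They do not describe the wider locus. Btbd9 (30215524 to 30576488), just beyond the end of Glo1, did not pass in KO against WT: its log2 fold change over both diets was 0.04 in prefrontal cortex, -0.23 in striatum (unadjusted p = 0.00926, adjusted p = 0.740) and -0.12 in hippocampus. Dnah8, an axonemal dynein gene whose start overlaps the longest form of Glo1, was barely detected; its mean lay between 0.0320 and 0.0883 RPKM in the 6 region and genotype groups, and it was too low to test in striatum. Its log2 fold changes of 0.13 in prefrontal cortex and 0.46 in hippocampus did not pass (adjusted p = 0.881 and 1.00). Glp1r was too low to test.

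Among the WT libraries, the members covered a wide range of levels on the per-length scale (RPKM, the read count per kilobase of gene, scaled to the library total). Akr1a1 was highest, with means of 33.4 ± 4.53 RPKM in prefrontal cortex, 28.1 ± 4.02 in striatum and 31.6 ± 5.22 in hippocampus (SD, n = 10 mice each). Glo1 (20.5 ± 1.76, 20.4 ± 2.66 and 29.6 ± 4.34 RPKM), Hagh (21.0 ± 2.36, 18.7 ± 3.03 and 20.6 ± 3.84 RPKM) and Park7 (17.1 ± 1.89, 17.4 ± 2.34 and 20.4 ± 3.21 RPKM) came next, and neighbours among these 3 overlapped in every region. Akr1a1 lay apart from the next gene, Hagh, in prefrontal cortex, and overlapped with Glo1 in striatum and hippocampus. Aldh2 followed at 6.48 ± 1.14, 7.70 ± 1.55 and 7.06 ± 1.53 RPKM and overlapped with Glod4 at 5.72 ± 0.623, 5.63 ± 0.451 and 5.80 ± 0.682 RPKM. Akr7a5 (1.92 ± 0.368, 1.61 ± 0.270 and 2.21 ± 0.617 RPKM) and Akr1b3 (1.12 ± 0.173, 1.23 ± 0.194 and 0.921 ± 0.179 RPKM) were lowest. The gap between Park7 and Aldh2 held in every library of every region, as did that between Glod4 and Akr7a5.

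This order rests on the authors' gene lengths, which for 7 of the 8 members equal the union of all annotated exons. The exception is Glo1, with a deposited length of 1935 bases against 12101 in that union. Per kilobase of the union, Glo1 had 3.28, 3.26 and 4.74 CPM per kilobase in prefrontal cortex, striatum and hippocampus and came 6th of the 8, below Glod4 and above Akr7a5, so its place in the order depends on the length chosen. The principal transcript was, like the union, an alternative chosen after seeing the data. Where a gene has several, the median of their lengths was taken (1127 bases for Glo1, 913.5 for Park7), and places on this scale depend on it. Per kilobase of that length, Akr1a1 stayed first and Park7 came second, with 46.5, 47.2 and 55.3 CPM per kilobase in prefrontal cortex, striatum and hippocampus. On that scale Glo1 (35.2, 35.0 and 50.9) came next, followed by Hagh (33.6 in prefrontal cortex and 33.0 in hippocampus). Glod4, whose annotated exons run into neighbouring genes, moved above Aldh2 (24.0 against 8.58 in prefrontal cortex), and Akr1b3 moved above Akr7a5 (6.74 against 2.68).

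None of the 7 other genes changed past the threshold where Glo1 was lost. Only poly(A) RNA was measured, so these results do not cover protein amount or enzyme activity. Over both diets, 0 of 7 were called in each region, against 0.673% of 13223 genes in prefrontal cortex, 0.203% of 13311 in striatum and 0.164% of 13393 in hippocampus. Before adjustment, 2 of these 21 tests had p below 0.05 in edgeR, both for Akr1a1, 1 of 7 in prefrontal cortex and 1 of 7 in hippocampus; of all genes, 14.1%, 5.78% and 4.24% did in prefrontal cortex, striatum and hippocampus. On a single diet 0 of 42 tests passed (0 before adjustment), where the background was 0.121% and 0.234% in prefrontal cortex on the normal and the lacking diet, 0.0601% and 0.128% in striatum, and 0.0299% and 0.0672% in hippocampus. DESeq2 and limma on log2(RPKM + 1) also called 0 of all 63, with 3 each below 0.05 before adjustment. Log2 fold changes over both diets lay between -0.32 and 0.16. The 95% intervals of the 21 values together ran from 0.638-fold to 1.36-fold.

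Akr1a1, the most abundant reductase, came closest. In prefrontal cortex its lowest, median and highest values were 31.8, 36.2 and 44.8 RPKM in KO and 25.8, 33.6 and 43.2 RPKM in WT, and 8 of the 10 KO libraries fell inside the WT range. The log2 fold change there was 0.16 (SE 0.0675, unadjusted p = 0.0252, adjusted p = 0.281). Without WT mouse 226 it was 0.21 (adjusted p = 0.0558), and with RIN as a covariate 0.19 (adjusted p = 0.110). In hippocampus KO ran from 32.5 through 34.2 to 40.4 RPKM and WT from 23.2 through 30.7 to 39.8 RPKM, a log2 fold change of 0.15 (SE 0.0692, unadjusted p = 0.0455, adjusted p = 1.00), with 9 of 10 KO libraries inside the WT range; without the 7 libraries high in choroid plexus markers it was 0.24 (adjusted p = 0.423). In striatum the sign was opposite: KO libraries ran from 16.6 through 25.1 to 33.5 RPKM and WT from 21.3 through 28.5 to 36.5 RPKM, with 3 KO libraries below all WT (log2 fold change -0.14, SE 0.104, adjusted p = 0.750).

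Hagh, which encodes the enzyme downstream of Glo1, kept overlapping RNA levels in both genotypes. In prefrontal cortex the KO values were 17.8, 22.9 and 25.3 RPKM (lowest, median, highest) and the WT values 15.7, 21.2 and 23.7. Log2 fold changes were 0.05 in prefrontal cortex (95% interval -0.09 to 0.19), 0.15 in striatum (-0.02 to 0.32) and 0.02 in hippocampus (-0.18 to 0.21), with adjusted p = 0.789, 0.740 and 1.00. Park7 gave 0.07 (-0.05 to 0.20), -0.07 (-0.23 to 0.09) and 0.06 (-0.09 to 0.20), and Glod4 gave 0.09 (-0.05 to 0.23), -0.05 (-0.19 to 0.08) and -0.02 (-0.17 to 0.14). In hippocampus all 10 KO libraries lay inside the WT range for Hagh and Glod4, and 9 of 10 for Park7.

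The reductases with the lowest RPKM, Akr7a5 and Akr1b3, were measured less precisely. Akr7a5 in striatum ran from 0.634 through 1.23 to 1.67 RPKM in KO and from 1.33 through 1.51 to 2.11 RPKM in WT. Among the 10 KO libraries, 5 were below every WT library and 5 were inside the WT range. The log2 fold change was -0.32 (95% interval -0.65 to 0.02, unadjusted p = 0.0604, adjusted p = 0.740), while in prefrontal cortex it was 0.12 and in hippocampus 0.06. For Akr1b3 the log2 fold changes were 0.03, -0.02 and 0.15 in prefrontal cortex, striatum and hippocampus (adjusted p = 0.939, 0.976 and 1.00). For Aldh2 they were -0.03, -0.18 and -0.05 (adjusted p = 0.909, 0.740 and 1.00), and all 10 KO libraries of striatum and hippocampus lay inside the WT range.

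**Figure D2:**
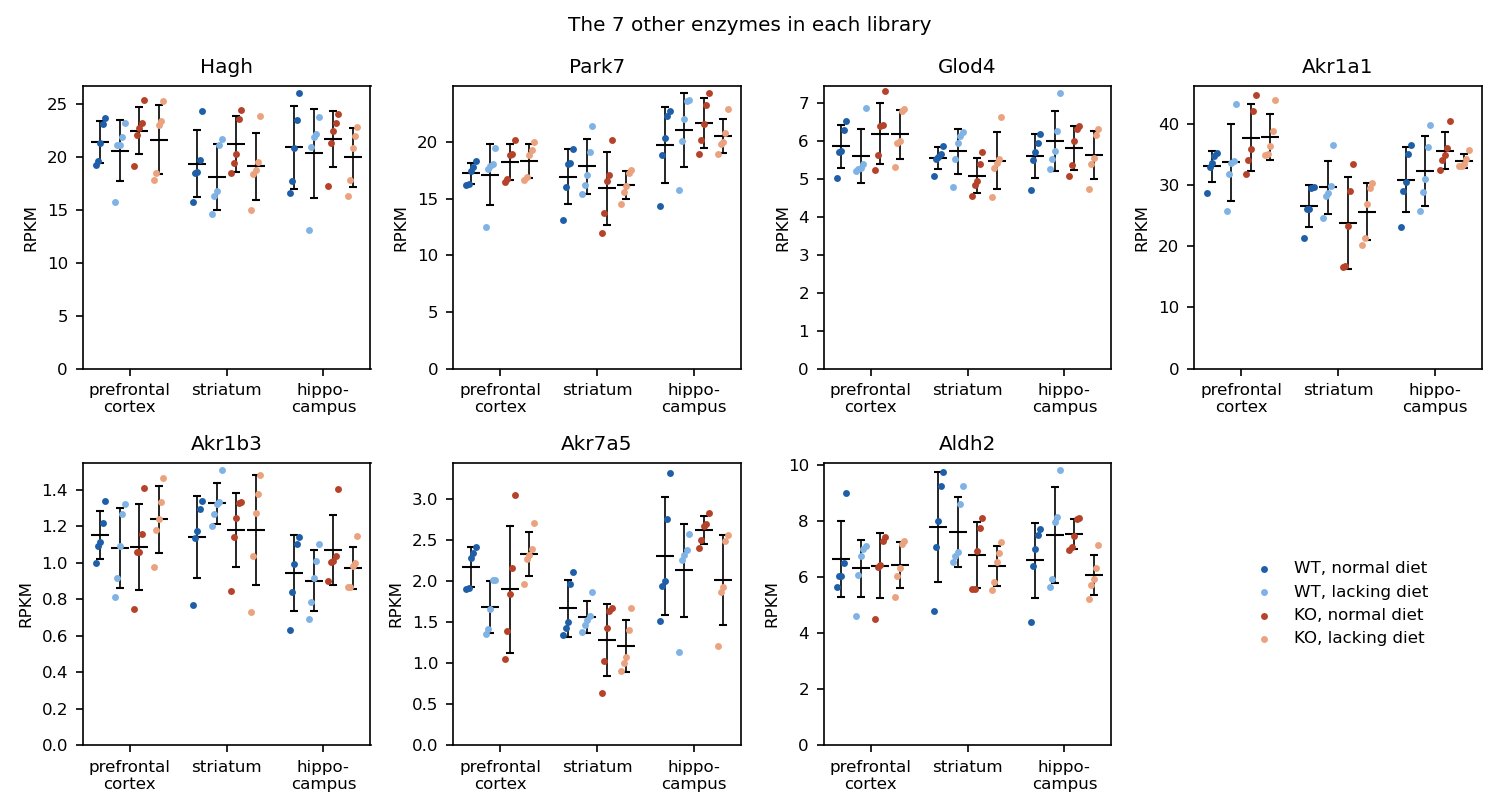
Expression of the 7 other enzymes in each library, in RPKM (linear axes from 0, one panel per gene), by region, genotype and diet; points are libraries, bars the mean ± SD of 5 mice. KO and WT points overlap for every gene, with the lowest Akr7a5 values, 0.634 RPKM among them, in KO striatum.

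Summed over the 7 genes, expression was 94.0 ± 8.81 RPKM in KO and 86.7 ± 9.56 in WT prefrontal cortex (SD, n = 10). In striatum it was 75.2 ± 12.1 in KO and 80.4 ± 9.74 in WT, and in hippocampus 92.5 ± 5.71 and 88.6 ± 13.4. Akr1a1 alone made up 26.7% to 42.2% of the sum in single libraries. With Glo1 included at its deposited length, the WT sums rose to 107 ± 8.61, 101 ± 9.73 and 118 ± 11.8 RPKM, against 94.2 ± 8.85, 75.5 ± 12.1 and 92.7 ± 5.68 in KO.

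No member passed the threshold between diets in either genotype. The mice differed clearly in VB6, which the labels give as 2.25 to 5.63 ng/µl on the lacking diet and 58.25 to 78.09 ng/µl on the normal diet. Over 2 genotypes and 3 regions, 0 of 42 tests of the 7 other members passed in edgeR and 0 had an unadjusted p below 0.05, with 0% of all genes called. DESeq2 and limma also called 0, each with 1 below 0.05 before adjustment. Akr7a5 had the largest log2 differences in both directions of sign, -0.35 in WT prefrontal cortex (SE 0.226) and 0.26 in KO prefrontal cortex (SE 0.214). In WT prefrontal cortex its 5 values were 2.34, 2.28, 1.90, 2.41 and 1.91 RPKM on the normal diet and 1.41, 1.65, 1.35, 2.01 and 2.01 RPKM on the lacking diet, so the groups overlapped. Glo1 itself, in WT mice, had log2 differences between diets of 0.14 in striatum (SE 0.132) and -0.09 in hippocampus (SE 0.145), and in prefrontal cortex a 95% interval from -0.28 to 0.28, with adjusted p of 0.974 or more in all 3 regions.

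**Figure D3:**
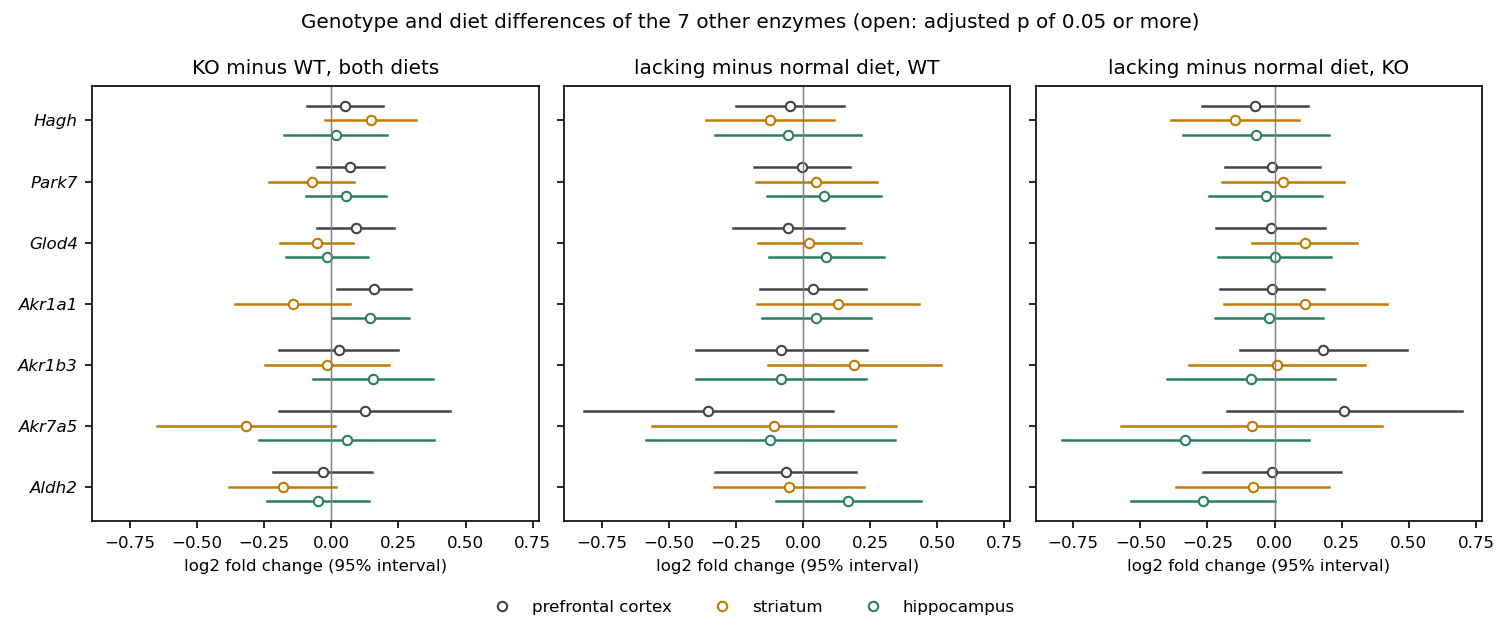
Log2 fold changes (points) with 95% intervals (lines) of the 7 other enzymes for KO minus WT over both diets and for lacking minus normal diet in WT and in KO mice, coloured by region, from edgeR on 20 libraries per region. All 63 points are open (adjusted p at or above 0.05), and the widest intervals belong to Akr7a5.

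Genotype and diet together gave no member past the threshold either. Of 21 interaction tests, 0 passed in edgeR, DESeq2 or limma, 0% of all genes were called in edgeR, and 1 test (2 in limma) had an unadjusted p below 0.05. That test was Aldh2 in hippocampus, with an interaction of -0.44 on the log2 scale (SE 0.184, unadjusted p = 0.0263, adjusted p = 0.514). Its values were 7.49, 6.96, 7.09, 8.08 and 8.12 RPKM in KO mice on the normal diet and 7.16, 5.73, 5.94, 6.34 and 5.23 RPKM in KO mice on the lacking diet. In WT mice they were 6.997, 7.73, 6.39, 4.39 and 7.51 RPKM on the normal diet and 8.14, 5.65, 7.98, 9.83 and 5.95 RPKM on the lacking diet. Among KO mice, 4 of the 5 on the lacking diet were thus below every mouse on the normal diet, while the WT diets overlapped widely. The choroid plexus markers moved beside this value: the median log2 interaction of the 5 was -2.22, with none called. Among hippocampal libraries of KO mice, the highest summed level was 1639 CPM with the normal diet and 397 CPM with the lacking diet, against 1138 and 1334 CPM in WT. Without the 7 libraries above 200 CPM, the Aldh2 interaction was -0.42 (SE 0.210, unadjusted p = 0.0608, adjusted p = 0.342).

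The KO against WT difference was also compared between regions. Over 3 pairs of regions, 0 of 21 tests of the 7 members passed in edgeR, DESeq2 or limma, and 2, 2 and 4 had an unadjusted p below 0.05; edgeR called 0%, 0.00718% and 0% of 13930 genes. Both edgeR values belonged to Akr1a1, whose KO effect in striatum was lower than in prefrontal cortex by 0.30 on the log2 scale (log2 difference -0.30, SE 0.121, unadjusted p = 0.0162, adjusted p = 0.499), and in hippocampus higher than in striatum by 0.28 (SE 0.122, unadjusted p = 0.0248, adjusted p = 0.735). The opposite signs of Akr1a1 in striatum and cortex are therefore not a difference that passed the test.

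The wider set of genes around methylglyoxal was taken from 6 lists of 33 genes: other aldehyde enzymes, glutathione synthesis and recycling, hydrolysis to D-lactate, repair of glycated amines with the glycation receptor Ager, the triose phosphate isomerase Tpi1, and the NRF2 system. All 33 were in the table, and 29, 29 and 30 could be tested in prefrontal cortex, striatum and hippocampus. None passed in KO against WT over both diets, where 0.673%, 0.203% and 0.164% of all genes did. Before adjustment 7, 2 and 1 were below 0.05, against 14.1%, 5.78% and 4.24% of all genes. Their medians were -0.01, -0.02 and -0.01 on the log2 scale, where the medians of all genes rounded to 0.00, -0.00 and 0.00. None passed for KO against WT on a single diet, for diet in either genotype or for the interaction. DESeq2 called 2 of them over both diets in prefrontal cortex, where it called 230 of all genes. These 2 are named after their values were seen. Haghl, a paralog of Hagh, had 3.87 ± 0.733 RPKM in WT and 5.29 ± 1.21 in KO (SD, n = 10), with adjusted p = 0.0340 in DESeq2 and a log2 fold change of 0.42 with adjusted p = 0.0912 in edgeR. Aldh4a1, a mitochondrial dehydrogenase of proline breakdown, had 2.05 ± 0.381 RPKM in WT and 1.54 ± 0.285 in KO, with adjusted p = 0.0381 in DESeq2 and a log2 fold change of -0.43 with adjusted p = 0.0912 in edgeR. In edgeR, Haghl passed without any of mice 226, 242 or 268 (adjusted p = 0.0353, 0.0432 and 0.0467) and Aldh4a1 without mouse 226 (0.0324) or with RIN as a covariate (log2 fold change -0.45, adjusted p = 0.0479). The number of all genes called in prefrontal cortex over both diets also rose in some of these fits. It was 89 in the main fit, 390 without mouse 226, 160 without mouse 268 and 189 with RIN. It changed less without mouse 242, where Haghl passed, or without mouse 283, named below. A further 2 are named after their values were seen. Aldh1b1, a mitochondrial aldehyde dehydrogenase, passed without mouse 226 (log2 fold change 0.69, adjusted p = 0.0255) or 283 (0.68, adjusted p = 0.0488), and on the lacking diet without mouse 226 (1.05, adjusted p = 0.0337). Nfe2l2, which encodes NRF2, passed on the lacking diet without mouse 226 (-0.52, adjusted p = 0.0496). On that diet 217 of all genes were called without mouse 226, against 31 in the main fit. Gclc, Gclm, Gss and Gsr, which make and recycle glutathione, had log2 fold changes between -0.05 and 0.13 in prefrontal cortex over both diets, with adjusted p of 0.486 or more in edgeR. In hippocampus, where none of them passed either, Gss had 1.22 ± 0.181 RPKM in KO and 0.998 ± 0.282 in WT. Gclm went the other way there, with 14.5 ± 0.982 RPKM in KO and 15.8 ± 2.19 in WT.

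Several members differed between regions. In WT mice, Glo1 was higher in hippocampus than in the other regions: its WT values ran from 24.0 through 29.4 to 38.6 RPKM in hippocampus, from 18.3 through 20.3 to 23.3 RPKM in prefrontal cortex and from 17.7 through 19.7 to 24.2 RPKM in striatum. All 10 hippocampal values lay above all prefrontal values, while the lowest of them lay just below the highest striatal value. The log2 difference was 0.47 from prefrontal cortex (SE 0.104, adjusted p = 0.000149) and 0.48 from striatum (SE 0.104, adjusted p = 7.04e-05), and -0.01 between striatum and prefrontal cortex (adjusted p = 0.917). Without the 7 hippocampal libraries of high choroid plexus markers, the differences were 0.55 and 0.57 (adjusted p = 7.06e-05 and 3.38e-05). The other glyoxalase, Hagh, did not follow: hippocampus differed by -0.09 from prefrontal cortex and by 0.08 from striatum on the log2 scale, and striatum from prefrontal cortex by -0.18 (adjusted p = 0.0694). That last value passed without mouse 241 (-0.24, adjusted p = 0.0145) or mouse 317 (-0.23, adjusted p = 0.0229).

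Of the 7 other members, 2 were called between striatum and prefrontal cortex, where 58.8% of genes were called, 2 between hippocampus and prefrontal cortex (47.3%) and 3 between hippocampus and striatum (54.5%), shares no higher than those of all genes; before adjustment 8 of the 21 tests had p below 0.05. Akr1a1 was lower in striatum than in prefrontal cortex, with a log2 difference of -0.26 (SE 0.0859, adjusted p = 0.00788), and Aldh2 was higher there by 0.24 (SE 0.0975, adjusted p = 0.0305). Aldh2 ran from 4.80 through 7.54 to 9.74 RPKM in striatum and from 4.62 through 6.30 to 8.99 RPKM in prefrontal cortex, so that the regions overlapped almost fully. Akr1b3 was lower in hippocampus than in prefrontal cortex (-0.35, SE 0.111, adjusted p = 0.00773) and than in striatum (-0.48, SE 0.109, adjusted p = 0.000170). Its counts remain uncertain because of the stretches it shares with other genes. The call of Aldh2 was lost in limma (adjusted p = 0.0632) and without any of mice 241, 259, 286 or 317 (up to 0.143). The call of Akr1b3 against prefrontal cortex was lost in limma (adjusted p = 0.0586) and without TMM factors (0.0523), and that of Akr1a1 without mouse 226 (0.0619).

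Park7 and Akr7a5 were called higher in hippocampus, and these calls were lost without the libraries high in choroid plexus markers. Park7 was higher there than in prefrontal cortex by 0.18 (SE 0.0701, adjusted p = 0.0313) and than in striatum by 0.17 (SE 0.0698, adjusted p = 0.0371), and Akr7a5 was higher than in striatum by 0.40 (SE 0.154, adjusted p = 0.0235). Without the 7 libraries the values fell to 0.08 (adjusted p = 0.442), 0.07 (adjusted p = 0.496) and 0.17 (adjusted p = 0.455). These calls were also lost when single mice were left out: Park7 against prefrontal cortex without any of mice 225, 241, 246, 272, 273, 283 or 317 (adjusted p up to 0.137), Park7 against striatum without 225, 246, 272 or 273 (up to 0.164), and Akr7a5 without 225, 246, 259, 272 or 273 (up to 0.0757). Without the same 7 libraries Hagh passed as lower than in prefrontal cortex (-0.23, adjusted p = 0.0407) and Aldh2 as lower than in striatum (-0.33, adjusted p = 0.0111). Aldh2 also passed as lower than in striatum without mouse 246 (adjusted p = 0.0234) or 273 (0.0150), and Akr1a1 as lower than in prefrontal cortex without mouse 241 (0.0324). The Park7 difference from striatum had adjusted p = 0.0544 with the mouse as a replicate block and 0.0557 with no filter on low counts. Glod4 passed in none of the 3 comparisons, with log2 differences between -0.05 and -0.02.

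**Figure D4:**
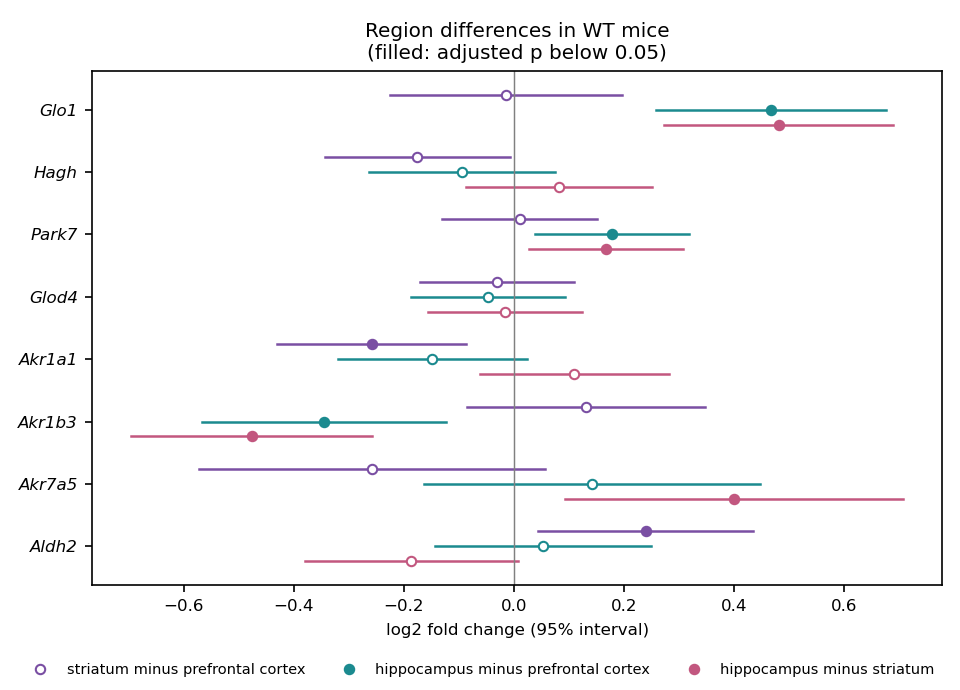
Log2 differences between regions (points) with 95% intervals (lines) for the 8 members in WT mice, from edgeR on all 60 libraries; filled points have an adjusted p below 0.05. Glo1 stands at 0.47 and 0.48 for hippocampus, and Akr1b3 at -0.35 and -0.48.

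The cell mix of the regions differed beside these values. In WT mice the 6 oligodendrocyte markers summed to 1999 to 3161 CPM in prefrontal cortex, 5389 to 6792 in striatum and 4566 to 6232 in hippocampus. The 6 astrocyte markers summed to 10010 to 12514, 8832 to 10569 and 10831 to 12366 CPM, and the 5 neuron markers to 13283 to 15488, 7521 to 8963 and 9697 to 11695 CPM. Their part in the regional differences of the members was not tested. Of the wider lists, 18 of 30 genes were called between striatum and prefrontal cortex in WT (12 higher, 6 lower), 12 between hippocampus and prefrontal cortex (9 higher, 3 lower) and 14 between hippocampus and striatum (7 higher, 7 lower), close to the shares of all genes or below them. Ldhd, the D-lactate dehydrogenase that takes up the end product of the glyoxalase route, was lower in striatum (-1.27, SE 0.153, adjusted p = 1.24e-10) and in hippocampus (-0.88, SE 0.149, adjusted p = 1.18e-06) than in prefrontal cortex. Aldh1a1, a cytosolic retinal and aldehyde dehydrogenase, was higher in both (1.13, SE 0.103, adjusted p = 1.12e-14, and 1.52, SE 0.103, adjusted p = 1.22e-19). Aldh1a2, a retinal dehydrogenase, was lower in striatum than in prefrontal cortex (-1.79, adjusted p = 1.67e-06) and higher in hippocampus than in striatum (1.76, adjusted p = 2.40e-06), and Aldh1b1 was higher in striatum than in prefrontal cortex (0.79, adjusted p = 0.000391). Nqo1, a quinone reductase of the NRF2 system, and Gss, glutathione synthetase, were higher in hippocampus than in prefrontal cortex (0.58 and 0.53, adjusted p = 0.0139 and 0.00527). Against striatum, hippocampus had more Akr1b10 (0.74, adjusted p = 6.78e-07) and less Txnrd1 and Gsr, the thioredoxin and glutathione reductases (-0.67 and -0.61, adjusted p = 6.48e-18 and 2.28e-13).

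Between libraries of the same group, several members moved together. With each library set against the mean of its group on the log2 CPM scale, Pearson's r over the 60 libraries was 0.76 for Park7 and Akr1a1, 0.71 for Park7 and Aldh2, 0.70 for Park7 and Hagh and 0.65 for Hagh and Aldh2. Glod4 did not share this pattern, with r = -0.02 against Park7, and Glo1 had r = -0.29 against Hagh. These values are descriptions, because the libraries share a common axis: the first principal component of the 10835 genes with a mean count above 50, members left out, which held 29.0% of their variance within groups, had r = 0.82 with Park7, 0.81 with Hagh, 0.78 with Akr1a1 and 0.75 with Aldh2, against -0.08 for Glod4. That axis had r = -0.42 with RIN and 0.12 with the log2 total count. The lowest deviation of Park7 from its group mean was -0.38, in the prefrontal library of mouse 241, and that of Hagh -0.52, in the hippocampal library of mouse 226. In striatum Akr7a5 went as low as -0.78 and Akr1a1 as low as -0.39, both in KO mouse 368, Akr1b3 reached -0.63 in mouse 244 and Aldh2 -0.58 in mouse 273. Of the promoter windows printed above, those of Park7 and Hagh held a GC box and that of Akr1a1 did not. GC boxes also lay in the windows of Glo1 and Akr7a5 but not in that of Glod4, and Aldh2 had no window. A link between these boxes and the shared movement was not tested.

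**Figure D5:**
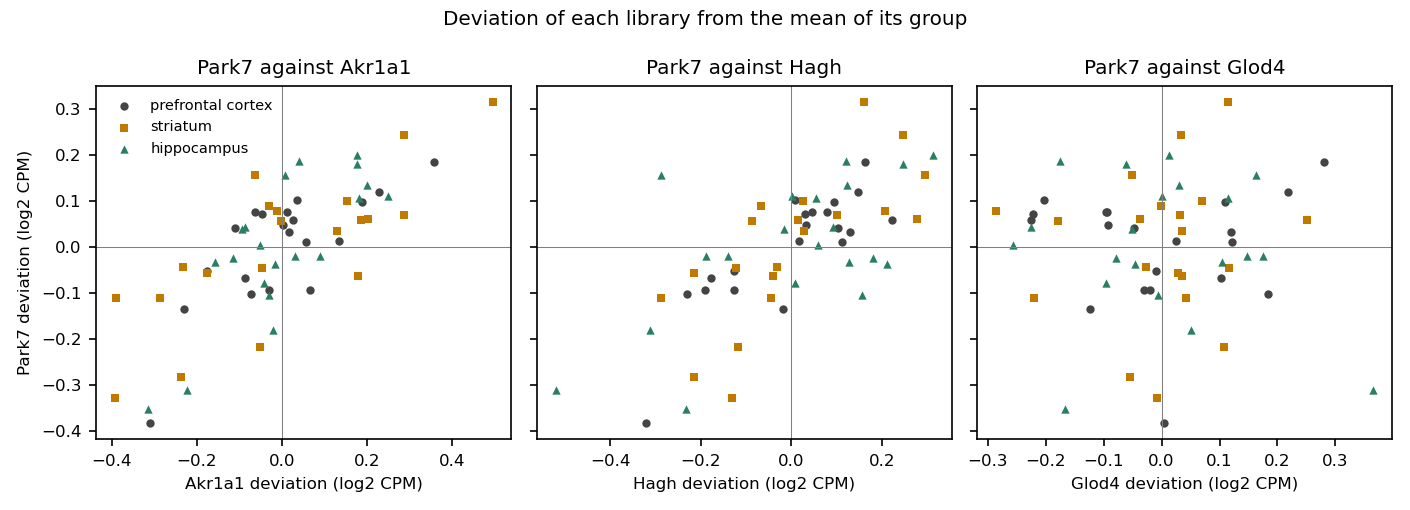
Deviation of Park7 from its group mean (vertical, log2 CPM) against that of Akr1a1, Hagh and Glod4 (horizontal, log2 CPM) in the 60 libraries, marked by region. The points follow a rising line for Akr1a1 (r = 0.76) and Hagh (r = 0.70) and form a round cloud for Glod4 (r = -0.02).

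The genes whose levels ran most like each member were ranked by Pearson's r of log2 CPM over all 60 libraries, among genes tested in every region. For Akr1a1 these were Tpi1, the isomerase that links the triose phosphates from which methylglyoxal forms (r = 0.92), Agap3 (0.92) and Ap2s1 (0.90). For Park7 they were Dagla, Cdip1 and Rogdi (0.85, 0.84 and 0.83), and for Aldh2 Dtx3, Acsbg1 and Gaa (0.80, 0.76 and 0.75). Those for Hagh included Mrpl37 (0.78) and Uba1 (0.76). For Akr1b3 they were Smarcal1, Usp4 and Creld1 (0.80, 0.77 and 0.77), for Akr7a5 Tuba8, Endov and Asb8 (0.73, 0.73 and 0.72), and for Glod4 Spats2, Sar1a and Uchl1 (0.63, 0.62 and 0.60). Glo1 falls into separate WT and KO clusters, so its likeness was also taken within the 30 WT libraries, where Trim2 (0.90), Lsm8 (0.90) and Fstl5 (0.89) came first. Over all 60 libraries, which hold both clusters, Atp6v0c (0.90), Ppil1 (0.86) and Rnaset2b (0.85) ran most like Glo1. These correlations are over libraries of different regions and depths, several of them from each mouse. The part of regional differences and of the common axis described above in these correlations was not tested.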

How the data were processed

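The authors deposited a table of raw counts per gene and a table of RPKM values for the 60 libraries; for all 18514 genes with a count, the length implied by count, RPKM and library total was whole within 0.01 bases (first library with a count) and varied by under 0.1% between libraries. Libraries were made from poly(A) RNA and read as 75-base single ends per the labels' protocols, and the submitters' processing notes name STAR 2.7.1a, HTSeq 0.9.1 and mm10. Counts were tested with edgeR 4.0.16 (R 4.3.3): TMM factors, filterByExpr (minimum count 10, minimum total 15), quasi-likelihood test, Benjamini-Hochberg adjustment over all genes, threshold 0.05. Genotype and diet were fitted within each region on 20 libraries, and regions on all 60. DESeq2 1.42.0 and limma 3.58.1 on log2(RPKM + 1) were alternatives, with others for filter, scaling, RIN, mouse and left-out mice. Omission of hippocampal libraries above 200 CPM of choroid plexus markers and levels per principal transcript or exon union were added after seeing the data. Replicates were separate mice, and libraries of the same mouse had a mean correlation of deviations of 0.053, against -0.012 for different mice of a group. All 8 members were named in each comparison. Genes of the wider lists were named where they passed the threshold in a KO or diet comparison of the main fit or an alternative. Between regions they were named from the up to 4 with the largest change. Gclc, Gclm, Gss and Gsr were also named with KO values, though none of them passed in a KO or diet comparison. The members and lists were chosen with earlier results of these data known. The edgeR script was tested on simulated counts. One gene among those most like Hagh is not reported here.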

Additional observations from a re-analysis of the deposited data

Results flagged for a closer look

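With 5 mice in each of 96 combinations of gene, region, genotype and diet, 10 had a highest or lowest library far from the other four by Dixon's criterion, where chance gives about 1 in 20. Values are RPKM. Mouse 226, WT on the lacking diet, supplied 3 of them: Hagh in hippocampus was 13.1 against 20.9 to 23.7 in the others, Akr7a5 in hippocampus was 1.13 against 2.25 to 2.57, and Glod4 in prefrontal cortex was 6.86 against 5.21 to 5.38. Mouse 241 of the same group had low prefrontal values of Hagh (15.7 against 21.1 to 23.2) and Park7 (12.5 against 17.6 to 19.5). Mouse 283, WT on the normal diet, had high Glo1 in hippocampus (34.7 against 28.7 to 29.9) and high Aldh2 in prefrontal cortex (8.99 against 5.65 to 6.51). Mouse 286 of that group had high Glo1 in striatum (23.4 against 17.7 to 19.1). Mouse 268, KO on the normal diet, had 0 Glo1 in prefrontal cortex (0 against 0.198 to 0.27) and high Akr1b3 in hippocampus (1.4 against 0.901 to 1.03).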

How the results depend on the processing

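Glo1 kept its direction and its adjusted p below 0.05 in KO against WT under every alternative and every left-out mouse, and none of the other 7 members passed in KO against WT, for diet or for the interaction under any of them. Over all genes the number called was less stable. In prefrontal cortex over both diets 89 genes were called, 230 with DESeq2, 189 with RIN as a covariate and 46 (without KO mouse 381) to 390 (without WT mouse 226) when a mouse was left out. On the lacking diet there the count was 31, with 88 in DESeq2, 17 in limma, 47 with RIN and 15 (without mouse 259) to 217 (without mouse 226); on the normal diet it was 16, and 8 to 21 with a mouse left out. In striatum it was 8 on the normal diet (DESeq2 15, limma 13, only the compared groups 5) and 17 on the lacking diet (DESeq2 30, RIN 3, 9 to 18 with a mouse left out). In hippocampus it was 22 over both diets (DESeq2 38, RIN 41, 6 without the libraries high in choroid plexus markers), 4 on the normal diet (DESeq2 8, limma 8, only the compared groups 2, 2 to 6 with a mouse left out) and 9 on the lacking diet (DESeq2 19, 3 without the libraries high in choroid plexus markers). For the KO effect between regions it was 0 for striatum against prefrontal cortex (DESeq2 3, limma 3, without TMM 2, 0 to 2 with a mouse left out), 1 for hippocampus against prefrontal cortex (limma 0, 0 to 2) and 0 for hippocampus against striatum (DESeq2 1, limma 5, 0 to 2). The diet in KO prefrontal cortex called 0 (0 to 1). Genes of the wider lists called in prefrontal cortex over both diets were 0 (DESeq2 2, RIN 1, 0 to 3) and on the lacking diet 0 (0 to 2); between hippocampus and prefrontal cortex in WT they were 12, and 21 with all 4 groups averaged. Among members other than Glo1, 2 were called for striatum against prefrontal cortex (limma 1, 1 to 2 with a mouse left out), 2 for hippocampus against prefrontal cortex (limma 1, without TMM 1, 1 to 2) and 3 for hippocampus against striatum (1 to 3). With all 4 groups averaged, which includes KO libraries, the Glo1 differences of hippocampus fell to 0.18 (adjusted p = 0.469) and 0.04 (adjusted p = 0.884). With the mouse as a replicate block, 6 of the 21 regional tests of other members passed in place of 7. The lost call was Park7 for hippocampus against striatum (0.17, adjusted p = 0.0544). With all 4 groups averaged, 10 of the 21 passed. The lowest adjusted p in that setting was 2.6e-08, for Akr1a1 between striatum and prefrontal cortex. The cause of these shifts was not tested. Depth limits Glo1 in KO libraries, with 0 to 10 counts, and, of the other members, Akr7a5, with 10 to 76 counts per library.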
